A study of Mus musculus with 17 samples.

Results

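Mouse orthologs of 10 genes near Alzheimer's disease (AD) risk loci of the human genome were followed in the dorsal hippocampus, the learning and memory region into which tau pathology was seeded. The members were chosen by symbol: Clu, Bin1, Picalm, Sorl1, Abca7, Cd2ap, Ptk2b, Mef2c, Fermt2 and Inpp5d, 10 of the 24498 gene symbols in the count table, and all 10 were found and passed the filter on low counts. Bulk RNA sequencing had been done on poly(A) RNA from slices that held the CA fields and the dentate gyrus. Some mice had lost Acss2 (KO), the gene of a nuclear and cytosolic enzyme that makes acetyl-CoA from acetate, the others had it intact (wild type, WT), and both genotypes came from homozygous crosses of F1 progeny. At 6 months of age they had received tau purified from the frontal cortex of AD patients (Tau) or phosphate-buffered saline (PBS) in the dorsal hippocampus, and the tissue was studied 6 months later. Of the 6 groups, female WT Tau had 2 libraries, and female KO Tau and the 4 male groups (KO Tau, KO PBS, WT Tau and WT PBS) had 3 each. Libraries carry the number in their label. No female PBS library was analysed, and all female libraries were numbered in a 3xx series and all male libraries in a 7xx series, so that sex and number series cannot be told apart.

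These genes were found through inherited common or rare variants that shift the risk of late-onset disease, and their proteins fall into a few cellular tasks. Clu and Abca7 act in lipoprotein and lipid handling. Bin1, Picalm, Sorl1 and Cd2ap act in the uptake of membrane cargo and its sorting through endosomes, where the amyloid precursor protein is also cut. Ptk2b, Fermt2 and Inpp5d relay signals from calcium, integrins and phosphoinositides, and Mef2c is a transcription factor of excitatory neurons and of microglia. Inpp5d is, in the brain, mostly a gene of microglia, although the set as a whole was chosen apart from the genes of microglial activation.

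Libraries held between 14183131 and 22463635 counts in all. A count of 0 allows up to 3 counts, which stood for 0.134 to 0.212 CPM (counts scaled to a common library total), counting error only. All members lay far above this limit in all 17 libraries. Acss2 read 44.0 to 54.6 CPM in the WT libraries and 3.07 to 8.81 CPM in the KO libraries, which matched the genotype labels. Nothing in the labels says whether each library came from a single mouse, so p-values measure only the spread between these samples. Several libraries stood apart in markers of cell types or neighbouring regions. Male KO Tau replicate 711 had 8120 summed CPM of the 8 astrocyte markers, against 4355 to 5195 in the other male libraries and 8651 to 9807 in the female libraries. Neocortex markers (6 genes) summed to 802 CPM in male KO PBS replicate 752 and, among male KO Tau libraries, to 522 CPM in 712 and 545 CPM in 713, against 128 to 305 CPM in the other 14 libraries. The 7 striatum markers summed to 649 CPM in 752 and to 144 to 219.9 CPM in the other 16 libraries. The 9 choroid plexus markers reached 4057 CPM within male KO Tau. No marker was at 0 in any library. In bulk tissue, fewer cells of a type and less RNA per cell cannot be told apart.

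**Figure D1:**
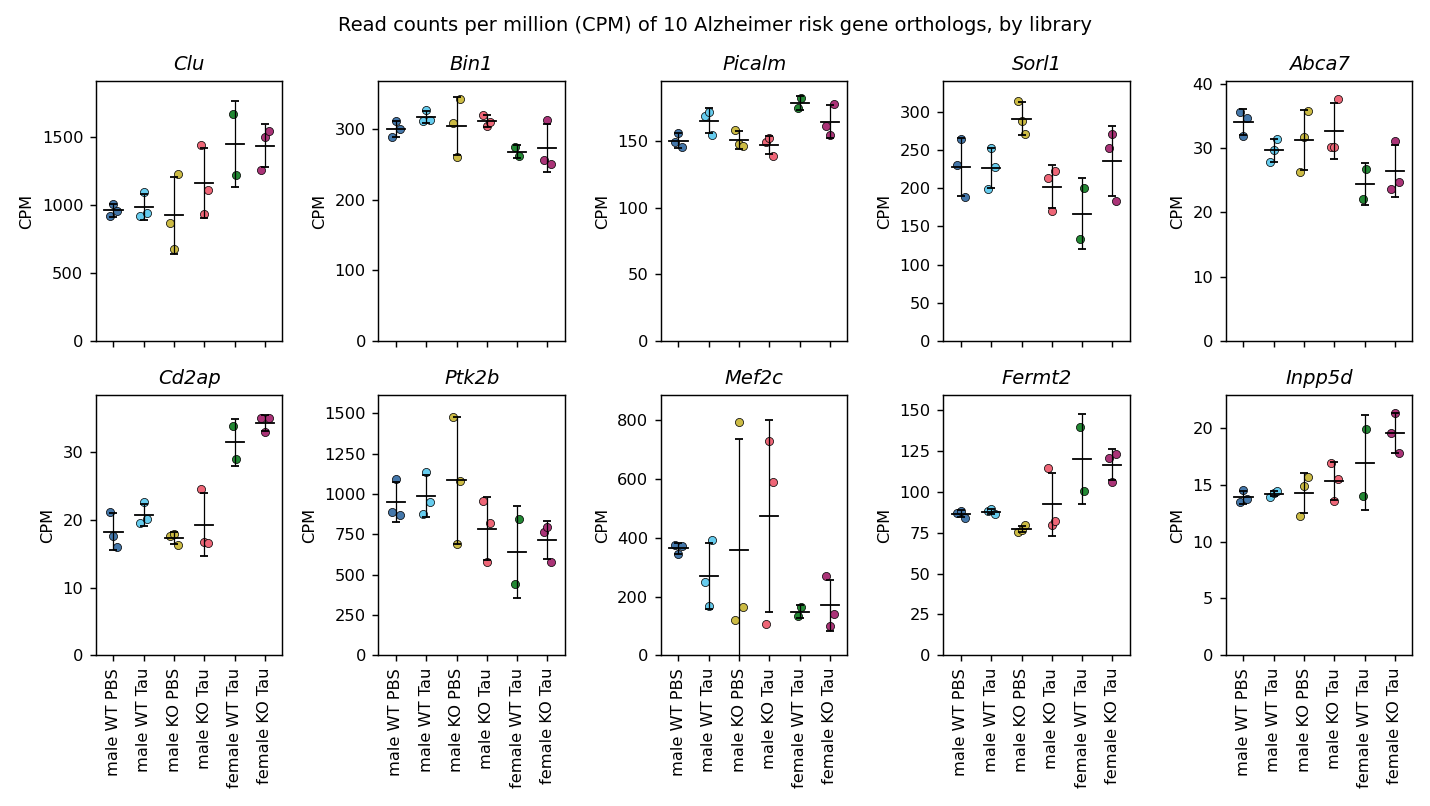
CPM of each of the 10 members (y axis, linear from 0) in the 6 groups (x axis). Points are libraries, the wide bar is the group mean and the whiskers are 1 SD (the lower whisker of Mef2c in male KO PBS is cut at 0). Cd2ap is higher in all 5 female libraries than in any male library, and Mef2c spreads over 99.3 to 794 CPM.

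Levels per length set the members in order. CPM per kilobase of merged exons (RPKM) averaged 329.7 ± 80.2 for Clu, 118 ± 33.1 for Ptk2b and 72.1 ± 6.56 for Bin1 (SD, n = 17 libraries). A middle tier held Sorl1 at 20.2 ± 4.12, Mef2c at 19.5 ± 13.8 and Fermt2 at 18.4 ± 3.64 RPKM. Picalm averaged 10.1 ± 0.807 RPKM, Abca7 4.45 ± 0.658, Inpp5d 2.06 ± 0.340 and Cd2ap 1.46 ± 0.454. The ranges over libraries overlapped between Clu and Ptk2b, between Ptk2b and Bin1, among the 3 members of the middle tier and between Inpp5d and Cd2ap. They did not overlap between Bin1 (lowest 60.8 RPKM) and the middle tier (highest 50.6 RPKM, Mef2c in 752), nor between Picalm and Abca7 or Abca7 and Inpp5d. Picalm (8.86 to 11.6 RPKM) lay below the ranges of Sorl1 and Fermt2 but inside that of Mef2c, which began at 6.32 RPKM. These levels used the exon length of all annotated transcripts together, which for Picalm (15732 bases) and Cd2ap (15864 bases) is far longer than for Clu (3437 bases).

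Positions are those of GRCm38. Clu (chr14:65968483-65981547, plus strand) and Ptk2b (chr14:66153257-66281052, minus strand) are neighbours, and Fermt2 lies on the same chromosome at chr14:45458795-45530118 (minus strand). Picalm spans chr7:90130213-90213465, Abca7 chr10:79996494-80015572, Mef2c chr13:83504034-83667080 and Inpp5d chr1:87620312-87720507, all on the plus strand. Sorl1 (chr9:41964720-42124297) and Cd2ap (chr17:42792951-42876665) are on the minus strand. No member shared exon bases with another gene on its own strand. Exons of Bin1 overlapped A830052D11Rik on the opposite strand over 6.22% of their length and those of Sorl1 overlapped Gm16214 over 1.63%. The counting used strand, but the library kit named in the labels is not the directional version, so reads from these opposite-strand genes may not have been kept apart from those of Bin1 and Sorl1.

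Upstream sequence was shown for 3 members that differ most in behaviour or cell type: Mef2c, the most variable member, Picalm, the least variable, and Inpp5d, the microglial phosphatase. RefSeq promoters of GRCm38.p6 matched 7 of the 10 members. The 250 bases before the annotated start are given 5′ to 3′ on the plus strand, and capitals mark matches, on either strand, to 4 words. They are TATAAA (the TATA box word), then CCAAT (the CCAAT box word), then GGGCGG (the core of a GC box) and last GAGGAAGT (a word of the kind that PU.1 and other ETS factors bind). No matches overlapped.
Mef2c chr13:83503784-83504033: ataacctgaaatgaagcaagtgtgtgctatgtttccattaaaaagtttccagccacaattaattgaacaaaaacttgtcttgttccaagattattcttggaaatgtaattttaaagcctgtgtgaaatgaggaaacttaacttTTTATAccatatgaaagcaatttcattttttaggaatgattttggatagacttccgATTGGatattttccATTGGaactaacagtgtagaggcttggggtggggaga
Picalm chr7:90129963-90130212: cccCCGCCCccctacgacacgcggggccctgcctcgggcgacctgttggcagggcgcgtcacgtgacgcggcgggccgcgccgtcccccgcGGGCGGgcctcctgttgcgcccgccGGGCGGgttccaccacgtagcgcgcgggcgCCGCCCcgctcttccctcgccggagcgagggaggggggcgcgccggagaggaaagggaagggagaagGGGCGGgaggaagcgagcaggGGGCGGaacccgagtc
Inpp5d chr1:87620062-87620311: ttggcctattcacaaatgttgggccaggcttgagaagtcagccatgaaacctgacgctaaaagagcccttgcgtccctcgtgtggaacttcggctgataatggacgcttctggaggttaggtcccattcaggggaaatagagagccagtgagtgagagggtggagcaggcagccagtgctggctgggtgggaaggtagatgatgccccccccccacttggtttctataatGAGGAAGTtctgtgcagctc
The Mef2c stretch, the first of 3 starts listed for the gene, was 33.6% G or C with 1 CpG and held 1 TATAAA and 2 CCAAT words. Picalm's was 79.2% G or C with 39 CpG dinucleotides and 6 GGGCGG words. For Inpp5d the values were 54.4%, 5 CpG and 1 GAGGAAGT word. The median over 32851 promoters of the same length was 52.4% G or C, and 12.4% of them held TATAAA, 33.8% CCAAT, 32.7% GGGCGG and 2.44% GAGGAAGT. The counts do not separate the starts of a gene, and a match is a description of letters.

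Spread between libraries of 1 group differed widely among the members. The pooled SD within groups, on the log2 CPM scale, was 0.99 for Mef2c, higher than in 98.27% of 15594 tested genes, and 0.38 for Ptk2b (77.57%). At the other end stood Picalm at 0.07 (1.231%) and Bin1 at 0.12 (12.86%), and the median over all genes was 0.22. Mef2c ran from 99.3 CPM in the lowest library (324) to 794 in the highest (752). From the lowest to the highest library CPM differed 3.37-fold for Ptk2b, 2.48-fold for Clu and 2.35-fold for Sorl1. The same ratio was 1.31 for Picalm and 1.37 for Bin1.

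Tau injection in WT males was asked first, since it shows what seeded tau does with Acss2 intact. No member passed a false discovery rate (FDR, Benjamini-Hochberg over all genes tested) of 0.05 in edgeR's quasi-likelihood test, 0 members had an unadjusted p under 0.05, and DESeq2 on the same libraries also called 0. Of the 15098 genes tested, 0% passed the FDR and 1.86% had an unadjusted p under 0.05. Log2 fold changes ran from -0.44 (SE 0.72) for Mef2c to 0.17 (SE 0.16) for Cd2ap, with a median of 0.02 over the members and -0.01 over all genes.

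The loss of Acss2 was compared next within PBS males and then within Tau males. KO PBS against WT PBS gave 0 members past the FDR and 1 at an unadjusted p under 0.05, Sorl1, where 0.00662% and 4.42% of all genes tested did. KO Tau against WT Tau gave 0 members by either measure, where 0.00662% and 4.71% of genes did. The gene past the FDR in each was Acss2 itself. In the first comparison log2 fold changes ran from -0.11 (SE 0.12) for Fermt2 to 0.41 for Sorl1, and in the second from -0.31 (SE 0.26) for Ptk2b to 0.83 (SE 0.73) for Mef2c. DESeq2 on the same libraries called 0 members in both.

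Tau against PBS within KO males, and KO Tau against WT PBS, the comparison that combines both insults, also gave 0 members past the FDR in edgeR and in DESeq2. Over all genes the shares past the FDR were 0% and 0.00662%. At an unadjusted p under 0.05 there was 1 member, again Sorl1, for KO Tau against KO PBS, where 7.95% of genes passed, and 0 members for KO Tau against WT PBS, where 6.33% did. In the combined comparison the members ran from -0.27 (SE 0.26) for Ptk2b to 0.39 (SE 0.72) for Mef2c, with 6 higher and 4 lower. The median size of the log2 fold change was 0.12 over the members and 0.13 over all genes. The male genotype by treatment interaction had 0 members past the FDR (0% of genes) and 1, Sorl1, at an unadjusted p under 0.05 (4.18% of genes).

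Females were compared by genotype under Tau, in 1 fit of the 11 Tau libraries (15419 genes tested). KO Tau against WT Tau in females gave 0 members past the FDR, where 0.00649% of genes did (Acss2), and 1 member, Sorl1, at an unadjusted p under 0.05, where 2.89% of genes did. Here 9 of 10 members were higher in KO and 1 lower, from -0.07 (SE 0.11) for Picalm to 0.55 for Sorl1. Among the 9, Fermt2 (0.01, SE 0.17) and Clu (0.04, SE 0.20) lay near 0. Bin1, Clu, Mef2c and Ptk2b kept their sign in 16 of 17 alternatives and Fermt2 in 15. The sex by genotype interaction had 0 members past the FDR (0% of genes) and 1, Sorl1 once more, at an unadjusted p under 0.05 (2.94% of genes). DESeq2 on the same libraries called 0 members in both.

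Female Tau against male Tau, averaged over the genotypes, was the comparison with the most calls. It passed 3 of the 10 members at the FDR, where 23.8% of all genes passed, and 6 of 10 at an unadjusted p under 0.05, where 39.8% did. Cd2ap rose, and Abca7 and Bin1 fell. The count moved with single libraries: it was 6 members (6290 genes) without male KO Tau replicate 711, 1 member (628 genes) without female WT Tau replicate 331, and also 1 member when any 1 of 325, 712, 713, 771, 772 and 773 was left out. In a test of any difference among the 6 groups, 1 member, Cd2ap, passed the FDR and 5 had an unadjusted p under 0.05, against 19% and 34.2% of 15594 genes. There 711 or 341 left out gave 3 members, and 751, 753, 324, 325 or 712 left out gave 2.

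**Figure D2:**
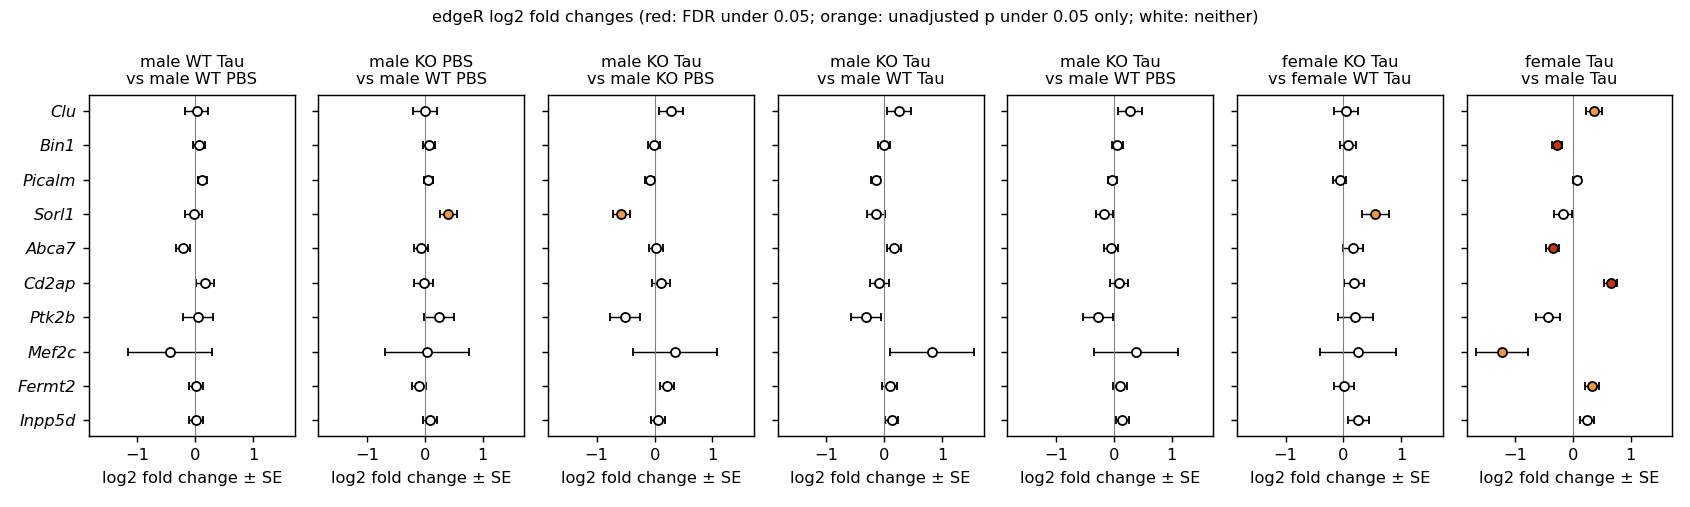
Log2 fold change ± SE from edgeR (x axis) of the 10 members (y axis) in 7 comparisons between groups. Red points passed the FDR of 0.05, orange points had an unadjusted p under 0.05 alone and white points neither. Red points appear for Cd2ap, Abca7 and Bin1 in female Tau against male Tau, and the orange points in the other panels all belong to Sorl1.

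Among the lipid-handling members, Clu encodes clusterin, a secreted chaperone that travels on lipoproteins and is made largely by astrocytes. Its CPM was 916, 1007 and 952 in male WT PBS (replicates 791, 792 and 793) and 919.7, 1096 and 938 in male WT Tau (771, 772 and 773). The male KO PBS libraries read 867, 674 and 1229 CPM (751, 752 and 753) and the male KO Tau libraries 1439, 934 and 1107 CPM (711, 712 and 713). Female libraries held 1668 and 1219 CPM in WT Tau (331 and 341) and 1255, 1500.2 and 1544 CPM in KO Tau (314, 324 and 325). The 4 male groups overlapped, and the female libraries lay above all male Tau libraries except 711. In females against males under Tau the log2 fold change of Clu was 0.36 (SE 0.14, FDR = 0.0750), and without replicate 711 it was 0.47 with an FDR of 0.00642. Over its 15 alternatives 2 called it, with an adjusted p between 0.00642 and 0.286.

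Microglia markers (10 genes) summed to 413 CPM in replicate 752, where Clu was lowest, and to 783 CPM in female replicate 331, where Clu was highest. Pearson's r of Clu with the microglia marker score (mean log2 CPM of the list) was 0.95 over the 17 libraries (Spearman's rho 0.92) and 0.95 in the 11 male libraries without 711 (rho 0.84). With the astrocyte score it was 0.89 and 0.73. Over the 9 of those males nearest to the median of each score, r was 0.80 for microglia and 0.43 for astrocytes. The points share library depth and dissection, and the part of these cells in the level of Clu was not tested. By log2 CPM over 17 libraries its pattern was most like those of Itgb5 (r = 0.984), Foxo4 (0.970) and Rplp0 (0.967), found among 15593 other genes.

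Abca7, a transporter that moves lipids across membranes, varied less. It read 35.6, 31.8 and 34.7 CPM in male WT PBS, 27.9, 29.6 and 31.3 in male WT Tau and 26.3, 31.7 and 35.7 in male KO PBS. Male KO Tau held 30.2, 30.1 and 37.6 CPM in replicates 711, 712 and 713. In females it was 22.1 and 26.7 CPM in WT Tau and 23.5, 31.1 and 24.6 in KO Tau. The male WT Tau libraries all lay below the male WT PBS libraries, yet that difference was not called (log2 fold change -0.21, SE 0.12, FDR = 1.00). Under Tau, Abca7 fell by 0.36 in females against males on the log2 scale (SE 0.11, FDR = 0.0418), with 4 of 5 female libraries below all 6 male Tau libraries. Only 6 of its 15 alternatives kept the call, with adjusted p between 0.0218 and 0.177, and every alternative kept the sign. Its nearest patterns were Polrmt (r = 0.909), Ano8 (0.898) and Sidt2 (0.892).

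Of the members that act in uptake and sorting, Sorl1 was the member with an unadjusted p under 0.05 in 3 of the 6 male comparisons, where no other member had one. It encodes a sorting receptor that works with retromer to return the amyloid precursor protein from endosomes. CPM was 231, 265 and 188 in male WT PBS and 199, 252 and 228 in male WT Tau. It reached 314, 288 and 271 CPM in male KO PBS, and the male KO Tau libraries read 213, 170.3 and 223 CPM (711, 712 and 713). Male KO PBS thus lay above male WT PBS, male WT Tau and male KO Tau with no overlap, and the other 3 male groups overlapped. Striatum markers differed between these groups too: 7 of 7 were higher in KO PBS than in WT PBS (median log2 fold change 0.96). In KO Tau 7 of 7 were lower than in KO PBS (median -0.87). None passed the FDR, and 4 and 3 had an unadjusted p under 0.05. Within KO PBS these markers summed to 649 CPM in replicate 752, but to 161 CPM in 751 and 167 CPM in 753. The WT PBS libraries held 175 to 189 CPM of these markers. Pearson's r of Sorl1 with the striatum score was 0.13 over the 12 male libraries and 0.10 over the 11 without 711. Over the 9 of those 11 nearest to the median of the score it was -0.80. The part of striatal tissue in the differences of Sorl1 was not tested.

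In edgeR the log2 fold change of Sorl1 was 0.41 for KO PBS against WT PBS (SE 0.15, FDR = 0.999). For KO Tau against KO PBS it was -0.57 (SE 0.15, FDR = 0.550). Both share the male KO PBS libraries, so a high or low value there enters each with opposite sign. The interaction of genotype and treatment was -0.55 (SE 0.21, FDR = 0.996). None of the 3 differences passed the FDR in the main test or in any alternative, and they kept their sign in 18 of 18, 19 of 19 and 16 of 16 alternatives. Their smallest adjusted p-values there were 0.660, 0.0889 and 0.514. Without replicate 752, the library high in striatum markers, the values were 0.41 (SE 0.17, FDR = 0.838), -0.58 (SE 0.17, FDR = 0.200) and -0.56 (SE 0.23, FDR = 0.514).

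Female Sorl1 values were 134 and 199.7 CPM in WT Tau and 252, 270.4 and 184 CPM in KO Tau, with overlap through replicate 325. The genotype difference under Tau was 0.55 in females (SE 0.24, FDR = 0.997) and -0.14 in males (SE 0.15, FDR = 0.937). Their difference was 0.69 (SE 0.31, FDR = 0.978), which also failed the correction. The female value ran from 0.27 to 0.90 over 17 alternatives. Marker lists differed in that female comparison too, with 0 markers past the FDR in the 2 lists named here. CA1 markers were higher in KO in 5 of 5 (median 0.70), and oligodendrocyte markers lower in 8 of 8 (median -0.45). Replicate 331, with 134 CPM of Sorl1, had 193 summed CPM of the CA1 markers, beside 408 in 341. Over the 6 groups Sorl1 had an FDR of 0.0727. Its pattern was most like those of Vps13d (r = 0.927), Wdfy3 (0.923) and Adcy9 (0.922), of which Adcy9 had the highest r in the 12 male libraries (0.968). Over the 17 libraries its r was -0.53 with the endothelium score (rho -0.20), -0.44 with the astrocyte score (rho -0.29) and 0.31 with the CA1 score (rho 0.43). In the 11 male libraries without 711 no marker list had an r above 0.4 in size. These values turned on few libraries: without the 2 libraries farthest from the median of each score, r with CA1 markers was 0.72 over the other 15, and among those males r was -0.80 with striatum and 0.72 with endothelium markers over the other 9. The part of these cells and regions in the level of Sorl1 was not tested.

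Cd2ap, a scaffold that links endocytosed receptors to actin, was the member with the clearest difference between groups. Male libraries held 21.2, 17.6 and 15.9 CPM in WT PBS, 19.6, 22.6 and 20.1 in WT Tau and 17.7, 17.9 and 16.3 in KO PBS. In male KO Tau replicate 711 stood at 24.6 CPM, above 16.8 and 16.5 in 712 and 713. Female WT Tau libraries read 33.9 and 29.0 CPM, and female KO Tau libraries 35.0, 33.0 and 35.0. All 5 female libraries lay above all 12 male libraries, and the male library nearest to them was 711. Under Tau, Cd2ap rose 1.57-fold in females against males (log2 fold change 0.65, SE 0.11, FDR = 0.00699). The call held in 15 of 15 alternatives, with log2 fold changes from 0.60 to 0.78 (the latter without 711) and adjusted p from 1.87e-05 to 0.0396. Over the 6 groups it had an FDR of 0.00343 and was called in 20 of 20 alternatives. Genotype gave 0.18 in females (SE 0.17, FDR = 0.997) and -0.08 in males under Tau (SE 0.16, FDR = 0.967).

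Markers of several cell types and of the thalamus moved with Cd2ap. Of the 8 astrocyte markers 5 rose and 0 fell past the FDR in females against males under Tau, led by Gfap at a log2 fold change of 1.70. Their summed level had the ranges given for the libraries above. Pearson's r between Cd2ap and the astrocyte score was 0.93 over 17 libraries (rho 0.79) and 0.50 in the 11 male libraries without 711 (rho 0.36). Microglia markers (5 of 10 rose, 0 fell) and endothelium markers (5 of 6 rose, 0 fell) moved in the same direction. All 5 thalamus markers were higher in females, 2 of them past the FDR, with a median log2 fold change of 1.35. Their score had an r with Cd2ap of 0.80 over 17 libraries (rho 0.68) and 0.60 in the 11 male libraries without 711 (rho 0.29). Without the 2 of those males farthest from the median of each score, r was -0.07 for thalamus and 0.40 for astrocytes. The part of these cells and regions in the difference was not tested, and neither was that of the library number series. The genes closest to Cd2ap in pattern were Chpt1 (r = 0.974), Gxylt1 (0.969) and Bmpr1b (0.968).

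Bin1 (chr18:32377230-32435737, plus strand), the amphiphysin-like protein that bends membranes, read 289, 311 and 299.7 CPM in male WT PBS, 312, 326 and 313 in male WT Tau and 308, 261 and 343 in male KO PBS. Male KO Tau held 319, 303 and 309.7 CPM, female WT Tau 274 and 262 and female KO Tau 256, 313 and 250.5. Of the female libraries only 324 reached into the range of the male Tau libraries. Bin1 fell by 0.28 in females against males under Tau on the log2 scale (SE 0.09, FDR = 0.0445). That call was kept in 4 of 15 alternatives (adjusted p 0.0123 to 0.122), and every alternative kept the sign. Its r with microglia markers was -0.29 over 17 libraries but 0.94 (rho 0.90) in the 11 male libraries without 711, where its r with Clu was 0.90. With oligodendrocyte precursor markers r was 0.60 and 0.91, and with oligodendrocyte markers 0.06 and 0.63 (rho 0.91 in those males). Over the 9 of those males nearest to the median of each score, r was 0.77 for microglia, 0.45 for precursors and 0.34 for oligodendrocytes. The part of these cells in the level of Bin1 was not tested. Fkbp8 (r = 0.862), Mtch1 (0.845) and Npdc1 (0.839) were its nearest genes.

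Picalm, which assembles clathrin on membranes, stayed between 139 and 182 CPM in all libraries. Among males the mean was 150.5 ± 5.59 CPM with WT PBS, 165 ± 9.32 with WT Tau, 151 ± 6.71 with KO PBS and 147 ± 6.97 with KO Tau (SD, n = 3). Female means were 179 ± 5.09 CPM in WT Tau (n = 2) and 165 ± 12.2 in KO Tau (n = 3). Its log2 fold changes between groups lay between -0.15 (SE 0.08, FDR = 0.927) for male KO Tau against WT Tau and 0.12 (SE 0.08, FDR = 1.00) for male WT Tau against WT PBS. The male genotype by treatment interaction was -0.20 (SE 0.11, FDR = 0.996), and none of its differences passed a p of 0.05 in edgeR before adjustment. Picalm and Abca7 ran opposite to each other, with r = -0.80 over 17 libraries and -0.79 in the 11 male libraries without 711. Ufl1 (r = 0.893), Dclre1b (0.888) and Agps (0.882) were closest to it.

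Ptk2b, the signalling kinase Pyk2 of forebrain neurons that answers to calcium, spread more widely. It held 889, 1093 and 867 CPM in male WT PBS, 877, 1135 and 953 in male WT Tau and 1479, 690.2 and 1083 in male KO PBS (751, 752 and 753). Male KO Tau libraries read 959, 576 and 820.1 CPM, female WT Tau 439 and 843 and female KO Tau 767, 796 and 579. All male groups overlapped. Within KO males, Tau against PBS gave -0.51 (SE 0.26, FDR = 0.639). In females against males under Tau it was -0.44 (SE 0.20, FDR = 0.133), and leaving out female WT Tau replicate 341 gave -0.73 with an FDR of 0.0277, the only call in 15 alternatives (the others up to 0.438). For male KO Tau against WT Tau, DESeq2 on only these groups without 711 called it (-0.49, SE 0.16, adjusted p = 0.0276), and the other 18 alternatives did not (adjusted p up to 1). The nearest genes were Abr (r = 0.967), Galnt16 (0.962) and Faah (0.961).

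Mef2c varied most. It read 375, 343 and 373 CPM in male WT PBS and 248, 168 and 393 in male WT Tau. In male KO PBS it stood at 121, 794 and 164 CPM (751, 752 and 753) and in male KO Tau at 105, 729 and 591 CPM (711, 712 and 713). Female libraries held 133 and 164 CPM in WT Tau and 268, 99.3 and 142 in KO Tau. Replicates of the KO groups thus differed severalfold, and the libraries labelled 752, 712 and 713 were the 3 highest of all.

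Mef2c followed the neocortex markers closely. The 3 libraries with the most Mef2c were the 3 with the most neocortex marker CPM, and 711 and female replicate 324, with 128 CPM each of those markers, had the least Mef2c. Pearson's r with the neocortex score was 0.95 over 17 libraries (rho 0.95) and 0.95 in the 11 male libraries without 711 (rho 0.91). With inhibitory neuron markers it was 0.86 and 0.90, and with striatum markers 0.59 and 0.71. With CA1 markers in those male libraries it was -0.85 (rho -0.95), and with Ptk2b -0.89. Ptk2b had the opposite relations in those males, -0.81 with neocortex, 0.83 with dentate granule cell and 0.80 with CA1 markers. Over 17 libraries these were weaker, at -0.26, 0.36 and 0.67, and r between Mef2c and Ptk2b was -0.18. Arpp21 (r = 0.981), Nlk (0.979) and Tbr1 (0.971), the last itself in the neocortex marker list, had the patterns most like Mef2c. The part of neocortical tissue, or of the other cells and regions, in the level of Mef2c was not tested.

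Mef2c in male KO Tau against WT PBS was 0.39 (SE 0.72, FDR = 0.945). The value turned on single libraries: without replicate 711 it was 0.86 (SE 0.64, FDR = 0.612) and without replicate 712 it was -0.05. DESeq2 on only these groups without 711 gave 0.86 (SE 0.10) with an adjusted p of 6.08e-14, the single call in 19 alternatives, whose adjusted p ran up to 1. The other KO Tau libraries, 712 and 713, then stood for the group, both high in neocortex markers. In females against males under Tau the value was -1.23 (SE 0.45, FDR = 0.0680). It passed the FDR in 2 of 15 alternatives, without 711 (-1.45, FDR = 0.00382) and without female KO Tau replicate 314 (-1.48, FDR = 0.0447), and failed in the others (up to 0.214). Of the 6 neocortex markers 3 fell and 0 rose past the FDR in the same comparison.

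**Figure D3:**
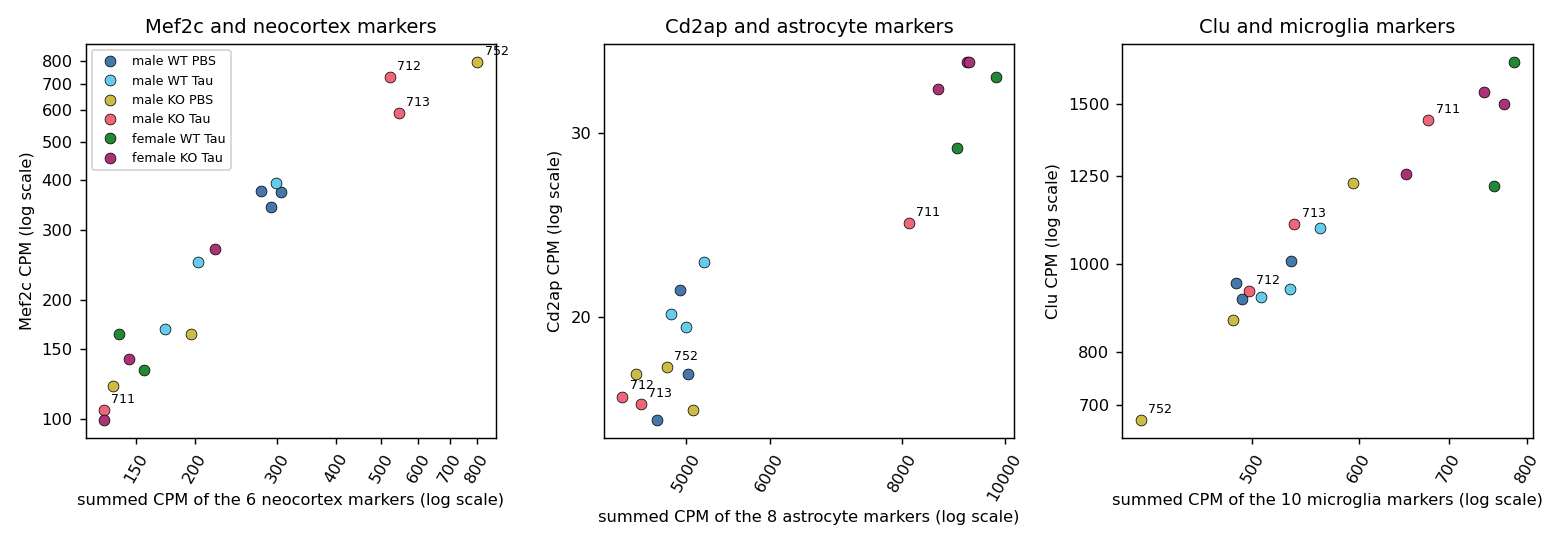
Levels of 3 members (y axes, CPM, log scale) against the summed CPM of a marker list (x axes, log scale) in the 17 libraries, coloured by group. Mef2c rises with the neocortex markers across all groups, and Clu rises with microglia markers. Cd2ap is highest in the female libraries, where astrocyte markers are high. Replicate 711, also high in astrocyte markers, has a Cd2ap level between the females and the other males. Replicates 711, 712, 713 and 752 are marked.

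Fermt2, kindlin-2, which helps integrins to grip the matrix, was tight in most male groups. It read 87.0, 88.3 and 84.1 CPM in male WT PBS, 88.2, 89.3 and 86.4 in male WT Tau and 75.7, 76.8 and 79.5 in male KO PBS. Replicate 711 of male KO Tau had 115 CPM beside 79.8 and 82.3 in 712 and 713, and females had 139.6 and 100.4 CPM in WT Tau and 120.4, 106 and 123 in KO Tau. The male KO PBS libraries lay below those of both male WT groups with no overlap, but the difference from WT PBS was -0.11 (SE 0.12, FDR = 0.999). All 5 female libraries were above all male libraries except 711. The difference between the sexes under Tau was 0.32 (SE 0.12, FDR = 0.0626), and without 711 it was 0.44 (SE 0.09, FDR = 0.00298). Fermt2 passed in 4 of 15 alternatives, with adjusted p up to 0.278. Its r with the astrocyte score was 0.94 over 17 libraries (rho 0.88) and 0.70 in the 11 male libraries without 711, and with Cd2ap it was 0.91 over 17 libraries. Over 17 libraries it was also 0.88 with microglia, 0.83 with endothelium and 0.78 with thalamus markers. Without the 2 of those males farthest from the median of each score, r was 0.51 for astrocytes and 0.65 for microglia. The part of these cells and regions was not tested. Pon2 (r = 0.974), Fads1 (0.971) and Aldh6a1 (0.969) came nearest to it.

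Inpp5d, the SHIP1 phosphatase that removes a phosphate from a PI3 kinase product, was among the lowest members. Male group means were 13.9 ± 0.571 CPM in WT PBS, 14.2 ± 0.241 in WT Tau, 14.3 ± 1.79 in KO PBS and 15.3 ± 1.69 in KO Tau (SD, n = 3). Female values were 14.0 and 19.9 CPM in WT Tau and 19.6, 21.3 and 17.8 in KO Tau. Of the 5 female libraries 4 lay above all male libraries, and replicate 331 was within the male range. The difference between the sexes under Tau was 0.24 (SE 0.12, FDR = 0.156), and 0 of its 15 alternatives called it. Inpp5d had an r of 0.71 with the microglia score over 17 libraries (rho 0.69) and 0.42 in the 11 male libraries without 711. The same r values were 0.61 and 0.71 for endothelium, 0.66 and 0.21 for astrocytes and 0.36 and 0.47 for oligodendrocytes. Over the 9 of those males nearest to the median of each score, r was 0.74 for microglia and 0.49 for astrocytes. There it was 0.32 for oligodendrocytes, 0.22 for endothelium and -0.80 for dentate granule cell markers. The part of these cells in the level of Inpp5d was not tested. Crybb1 (r = 0.898), Dock2 (0.889) and Arrdc2 (0.867) were its nearest genes.

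**Figure D4:**
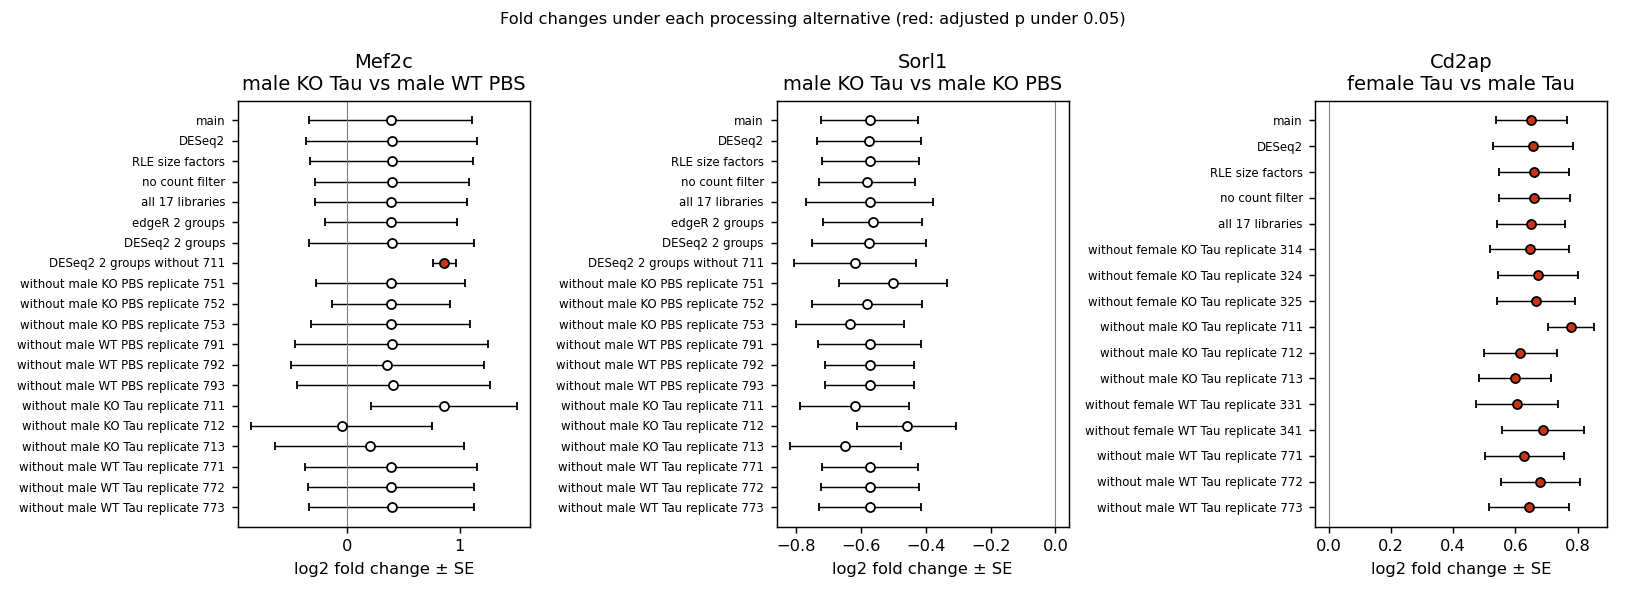
Log2 fold change (x axes; bars are ± SE) of 3 members in 1 comparison each, in the main test and under each alternative (y axes), red where the adjusted p is under 0.05. Mef2c is called in the setting that drops replicate 711 in DESeq2 and lies near 0 without 712, Sorl1 stays below 0 without a call, and Cd2ap is called in all settings.

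Other genes of the same pathways were read from 7 lists. Outside the comparison of the sexes no gene of any list passed the FDR in edgeR, in the male, female genotype and interaction comparisons. In male KO Tau against WT PBS the 40 of 42 other AD risk locus orthologs that could be tested (Ankh and Tspoap1 were not) had 5 genes higher and 0 lower at an unadjusted p under 0.05, where 6.33% of all genes had such a p in either direction. Their median log2 fold change was 0.04 beside -0.0032 over all genes. They ran from -0.48 for Mme, a peptidase that degrades amyloid peptides, to 1.22 for Ace, the angiotensin-converting enzyme (SE 0.55, FDR = 0.784). In that comparison 9 of 9 choroid plexus markers were higher too (median 3.91), 8 at an unadjusted p under 0.05 and 0 past the FDR. They summed to 4057 CPM in replicate 713, beside 288 in 711 and 58.9 in 712. The part of choroid plexus in the level of Ace was not tested. The 24 clathrin endocytosis genes ran from -0.28 (Synj1, a synaptic phosphoinositide phosphatase) to 0.09 (Epn1, an epsin), with 16 lower and 8 higher. The 11 retromer and sorting receptor genes ran from -0.23 (Sorcs2) to 0.38 (Sorcs1), both sorting receptors related to Sorl1.

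Among the lipid genes in that comparison, Apoe, the main apolipoprotein of the brain, had the highest log2 fold change at 0.48. Integrin adhesion genes (15 tested) ran from -1.27 for Fermt1 to 0.33 for Itgav. Phosphoinositide phosphatases and PI3 kinases (13 tested) ran from -0.46 (Inpp4b) to 0.42 (Dok1). Of the Mef2 factors and class IIa deacetylases 6 of 7 were tested (Mef2b was not), from -0.35 for Hdac9 to 0.22 for Hdac4.

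In females against males under Tau, where 23.8% of all genes passed, the lists had calls of their own. Of the 40 other risk locus orthologs 6 rose and 6 fell. The largest rises were those of Ctsh, a lysosomal protease (0.77, SE 0.15, FDR = 0.00852), and Cd33, a microglial receptor (0.71, SE 0.20, FDR = 0.0292), and the largest falls those of App, the amyloid precursor protein (-0.56, SE 0.16, FDR = 0.0279), and Wwox (-0.51, SE 0.14, FDR = 0.0241). Clathrin genes numbered 0 up and 4 down of 24, with Dnm1, a synaptic dynamin, at -0.76 (SE 0.19, FDR = 0.0199) and Ap2a1, an adaptor subunit, at -0.66 (SE 0.13, FDR = 0.00954). Retromer and sorting receptor genes numbered 0 up and 4 down of 11, with Gga3 at -0.50 and Gga2 at -0.38.

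Lcat, which esterifies cholesterol, rose by 0.70 among the lipid genes (1 up, 2 down of 10), and Abcg1 (-0.48) and Scarb1 (-0.41) fell. Integrin adhesion genes had 3 up and 3 down of 15, among them Fermt3 at 0.56 and Itgb1 at 0.36, and Fermt1 at -2.14 and Bcar1 at -0.48. Phosphoinositide genes had 1 up and 2 down of 13 (Inpp4b at 0.61, Pik3r2 at -0.45 and Inpp5e at -0.26). Mef2d was the single call of its list at -0.48.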

How the data were processed

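Poly(A) RNA of 17 dorsal hippocampus libraries was analysed in 6 groups taken from the sample labels. Per the labels, the animals were perfused with fixative before RNA extraction. The authors aligned reads with STAR 2.5.2 to mm10 (GRCm38) and counted exonic reads per gene with HTSeq 0.9.1 with the reverse strand setting. Raw counts per gene symbol were deposited (versions from the submitters' processing notes, with SAMtools 1.1 and DESeq2 also named). The annotation release is not given in the sources used here. Of the 24498 symbols 4152 had no count. Total counts per library set the precision of each value, and no pair among 136 pairs of libraries was identical (smallest chi-square per gene 3.47).

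CPM was scaled to total counts. RPKM used merged exon lengths of GENCODE on GRCm38, matched by symbol. Tests were run in R 4.3.3 with edgeR 4.0.16 (quasi-likelihood F-test, TMM factors from 0.949 to 1.08, filterByExpr with a minimum count of 10 and total of 15) on raw counts, with Benjamini-Hochberg adjustment over all genes: the 12 male libraries for male contrasts, the 11 Tau libraries for contrasts with females and all 17 for the test over 6 groups, 10 comparisons in all. The alternatives were DESeq2 1.42.0, RLE size factors, no filter beyond 1 count, all 17 libraries in 1 fit, only the groups compared, that setting in DESeq2 with and without male KO Tau replicate 711, each replicate left out, and TMM-scaled CPM. The scripts were tested on simulated data. All 10 members were named. Fold change, SE and FDR were required where an unadjusted p or FDR was under 0.05, and otherwise for the lowest and highest member. Values of other members beyond this rule were added after they were seen. The 3 nearest genes were ranked by Pearson's r of log2 CPM (prior count 2), without a test. From each list of other genes up to 2 calls per direction were named, and otherwise the lowest and highest in male KO Tau against WT PBS. The lowest value of the lipid list is not reported here. The members, lists and rules were chosen with earlier results of these data known.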

Additional observations from a re-analysis of the deposited data

How the results depend on the processing

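With 2 or 3 libraries per group, single libraries carried much of the spread, and 711 and 331 moved the most counts of calls. The count of genes past the FDR was 3 for male KO Tau against WT PBS with all 17 libraries in 1 fit. DESeq2 on the same libraries called 2 genes for male KO PBS against WT PBS, 37 for KO Tau against KO PBS, 4 for KO Tau against WT Tau, 15 for KO Tau against WT PBS, 1 for the sex by genotype interaction and 4471 over the 6 groups, and 5 members both in females against males and over the 6 groups. On only the groups compared, DESeq2 called 11 genes for male WT Tau against WT PBS, 4 for KO PBS against WT PBS, 28 for KO Tau against WT Tau, 22 for KO Tau against WT PBS and 4 for the female genotype comparison, where edgeR called 0 (446 at an unadjusted p under 0.05 in the fit of all Tau libraries). That DESeq2 setting without 711 called 14, 1378 and 1029 genes for male KO Tau against KO PBS, WT Tau and WT PBS, with 1 member each in the last 2, Ptk2b and Mef2c. RLE size factors gave 2 members over the 6 groups, and no count filter left 1 member in females against males. The cause of these shifts was not tested.

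With each replicate left out, females against males ranged from 628 genes (without 331) to 6290 (without 711) and from 1 to 6 members (6 without 711), the 6 groups from 1664 genes (without 331) to 4703 (without 711) and from 1 to 3 members, and the female genotype comparison from 0 genes (without 324 or 331) to 1. Leaving out a replicate left female WT Tau with 1 library, assumed to vary like the others. For females against males, only the groups compared is the main setting itself and was not run apart. On TMM-scaled CPM 3 group means moved by more than their SD: Bin1 (254) and Picalm (169) in female WT Tau and Fermt2 (80.4) in male KO PBS. No called value changed sign. Among the single-gene values, 22 gained a call and 20 lost one. With the medians over the members counted too, 446 stayed on their side of the threshold or, where no test applied, within the spread between replicates.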
